A study of Mus musculus with 4 samples.

Results

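C-type lectin receptors are surface proteins with which dendritic cells and macrophages bind sugars, microbes and dying cells. The 10 genes described here are Clec10a, Mgl2, Cd209a, Cd209d, Clec4a4, Clec4a2, Clec9a, Clec12a, Clec7a and Clec4n, chosen by symbol, beside 32285 genes in the RNA matrices. RNA is described for the 9 found in both RNA matrices, and that of Clec7a was not analysed here. All 10 had accessible regions within 10 kb of their start sites, 39 regions in all with peaks in both libraries.

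The assay was 10x Multiome, which reads the RNA and the accessible DNA (ATAC-seq) of each nucleus together. Cells from livers of adult male C57BL/6J mice were sorted as living CD45+ CD64- CD11c+ cells, a gate for dendritic cells that is meant to leave macrophages out, and their nuclei were extracted. D0 is before any treatment, and D5 is after 5 days of chow with 0.1% DDC (3,5-diethoxycarbonyl-1,4-dihydrocollidine), a compound that injures the bile ducts. The 4 samples comprise an RNA and an ATAC layer for each day from 1 library per day, so no test between days or classes was possible. Intervals below are exact 95% intervals for counting error only. Day and library cannot be told apart.

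In the living cell these receptors fall into groups by how they signal. Clec4n (dectin-2) pairs with the Fc receptor gamma chain, and Clec7a (dectin-1, the receptor for fungal beta-glucan) and Clec9a (the receptor for actin filaments exposed by dying cells) carry an activating tail motif that recruits the kinase Syk. Clec4a2 (Dcir), Clec4a4 (Dcir2) and Clec12a carry an inhibitory motif that recruits phosphatases. Mgl2, a paralog of Clec10a, binds galactose and N-acetylgalactosamine, and Cd209a and Cd209d, relatives of human DC-SIGN, bind mannose and fucose. Both pairs are known for uptake of what they bind. Clec9a is known as a marker of type 1 conventional dendritic cells (cDC1), and Clec10a, Mgl2, Cd209a and Clec4a4 as markers of type 2 conventional dendritic cells (cDC2) or their subsets.

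After filters on depth, mitochondrial RNA and doublets, 10982 nuclei at D0 and 19832 at D5 were kept and clustered without the 69 C-type lectin receptor and signalling genes examined here, so no member helped to form a cluster. Clusters were named from other markers and carry the ending "-like". The naming also asked whether a marker was among a cluster's leading genes, where members could take places. Mgl2 did so in a cDC2-like cluster, Cd209d in the preDC-like cluster and Clec4a4 in an unnamed one. The classes at D0 and D5 were cDC1-like with 1550 and 2722 nuclei, cDC2-like with 2081 and 8435, preDC-like (precursor-like) with 200 and 1454, Ccr7+ DC-like (mature) with 322 and 1056, plasmacytoid (pDC-like) with 2349 and 2057, macrophage-like with 748 and 1128, nonclassical monocyte-like with 107 and 179, NK cell-like with 1447 and 1107, and T cell-like with 347 and 430. Both days were unequal in depth, with a median of 1799 UMIs (unique molecular identifiers, counted RNA molecules) per called barcode at D0 and 2790 at D5. Joint detection of 2 or more lymphoid with 2 or more dendritic cell markers was found in 22.8% of the cDC2-like nuclei at D0 and 13.3% at D5. In the NK cell-like nuclei it was found in 59.9% and 79.9%, and in the T cell-like nuclei in 61.7% and 78.8%. Whether NK and T cells express some of these dendritic cell markers themselves was not tested. Further, 591 barcode sequences occurred in both libraries. The part of these in the levels below was not tested.

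RNA levels are UMIs of a gene summed over the nuclei of a class and scaled to the total UMIs of that class, as counts per 1000000 UMIs (CPM). The level in the pooled T and NK cell-like nuclei of the same day is taken as the level that free RNA and residual doublets reach, and is called the lymphoid level. Whether T and NK cells express any of the members themselves was not tested. A class is called above it when the intervals do not overlap.

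The sequences shown first are those just before the start sites of 5 members that RefSeq gives a promoter for, namely those led by cDC2-like, preDC-like and cDC1-like nuclei and Clec7a, so that the regions described below can be read against them. A RefSeq promoter was found for 7 of the 10 members (GRCm38.p6, the mm10 coordinates of the files), not for Clec10a, Clec4a4 and Clec4n. Each line gives the 250 bases before the RefSeq start, 5′ to 3′ on the strand of the gene. For Mgl2 and Cd209d the start used lies inside the gene span given below, so part of the line falls within the gene. Mgl2 lies at chr11:70130107-70130356 (plus strand), Cd209a at chr8:3748985-3749234 (minus), Cd209d at chr8:3878500-3878749 (minus), Clec9a at chr6:129408612-129408861 (plus) and Clec7a, for the more upstream of its RefSeq starts, at chr6:129472786-129473035 (minus). Capitals mark motifs on either strand, namely GAGGAA and GGAAGT (bound by PU.1 and other ETS factors), the ETS-IRF composite element (GGAANNGAAA, where N is any base) and the AP-1-IRF composite element (TTTCNNNNTGA).
Mgl2: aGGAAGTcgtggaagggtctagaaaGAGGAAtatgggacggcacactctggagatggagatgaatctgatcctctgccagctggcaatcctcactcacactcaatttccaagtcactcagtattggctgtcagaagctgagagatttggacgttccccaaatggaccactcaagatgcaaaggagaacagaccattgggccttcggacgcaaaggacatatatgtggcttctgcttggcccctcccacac
Cd209a: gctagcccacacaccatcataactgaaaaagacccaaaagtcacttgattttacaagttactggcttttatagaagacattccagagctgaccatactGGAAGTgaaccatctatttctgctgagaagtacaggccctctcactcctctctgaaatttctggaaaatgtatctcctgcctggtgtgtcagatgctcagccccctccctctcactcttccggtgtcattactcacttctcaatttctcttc
Cd209d: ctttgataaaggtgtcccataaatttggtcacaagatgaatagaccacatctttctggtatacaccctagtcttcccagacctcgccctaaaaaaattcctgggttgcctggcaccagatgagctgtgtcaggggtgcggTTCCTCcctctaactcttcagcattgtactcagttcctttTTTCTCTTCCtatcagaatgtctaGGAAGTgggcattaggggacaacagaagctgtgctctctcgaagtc
Clec9a: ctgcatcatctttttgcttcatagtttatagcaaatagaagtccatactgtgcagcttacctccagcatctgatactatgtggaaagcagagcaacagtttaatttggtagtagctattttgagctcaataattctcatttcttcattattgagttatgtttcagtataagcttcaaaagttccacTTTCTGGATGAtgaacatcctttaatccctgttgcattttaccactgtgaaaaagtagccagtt
Clec7a: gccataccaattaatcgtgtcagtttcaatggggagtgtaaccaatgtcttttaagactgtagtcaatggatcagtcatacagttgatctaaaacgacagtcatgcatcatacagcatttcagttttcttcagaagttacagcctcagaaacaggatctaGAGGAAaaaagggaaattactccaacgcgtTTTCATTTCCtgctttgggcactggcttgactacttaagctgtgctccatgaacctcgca

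In these lines the ETS-IRF composite occurred on the opposite strand at positions -70 to -61 of Cd209d and -60 to -51 of Clec7a, counted from the base before the start as -1. Such an element is held by 2.30% of the 32851 RefSeq promoters of the same length. The AP-1-IRF composite, held by 3.82% of them, occurred at -64 to -54 of Clec9a, the member highest in cDC1-like nuclei. GGAAGT (19.7% of promoters) occurred in Mgl2, Cd209a and Cd209d, and GAGGAA (23.3%) in Mgl2, Cd209d and Clec7a. Of the matched promoters not printed, Clec4a2 held GGAAGT and Clec12a held GAGGAA, neither with a composite element. These matches are letters in a window and not bound sites.

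Clec10a and its neighbour Mgl2 (chr11:70166623-70170836 and chr11:70130125-70137542, both on the plus strand) were highest in cDC2-like nuclei on both days. Clec10a stood at 458 CPM at D0 (437 to 479) and at 458 CPM at D5 (449 to 466). At D0 it was 182 in preDC-like, 152 in pDC-like, 108 in macrophage-like, 90.3 in nonclassical monocyte-like, 45.3 in cDC1-like and 25.2 CPM in Ccr7+ DC-like nuclei. At D5 the same classes stood at 225, 159, 179, 94.8, 50.7 and 73.3 CPM. cDC2-like nuclei thus held 2.52 times the CPM of the next class at D0 and 2.04 times at D5, while preDC-like and pDC-like nuclei at D0, and macrophage-like and pDC-like nuclei at D5, did not differ beyond their intervals. The lymphoid level of Clec10a was 35.6 CPM, later 72.0, so the cDC1-like and Ccr7+ DC-like levels did not exceed it beyond the intervals on either day. In cDC2-like nuclei 42.2% had a Clec10a UMI at D0 and 52.3% at D5. With every nucleus thinned to 1000 UMIs the shares were 28.6% and 30.3%, against 3.25% and 5.24% of the NK cell-like nuclei.

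Mgl2 was more restricted. It stood at 330.2 CPM in cDC2-like nuclei at D0 (313 to 348) and at 146 at D5 (141 to 150). Macrophage-like nuclei followed with 111 and 61.1 CPM, and nonclassical monocyte-like nuclei with 34.7 and 49.0. The remaining dendritic classes held little, with preDC-like nuclei at 25.2 and 33.5, pDC-like at 16.7 and 21.5, cDC1-like at 15.5 and 11.7 and Ccr7+ DC-like at 19.6 and 14.9 CPM, beside a lymphoid level of 24.5 and 17.5. Of the thinned cDC2-like nuclei, 22.6% had an Mgl2 UMI at D0 and 9.94% at D5.

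Cd209a (chr8:3743395-3748984, minus strand) had the same leading class. In cDC2-like nuclei it stood at 744 CPM at D0 (718 to 771) and 554 at D5 (544 to 563). preDC-like nuclei came next with 288 and 349.8 CPM, then macrophage-like nuclei with 156 and 204. pDC-like nuclei held 86.2 and 142, nonclassical monocyte-like 41.7 and 163, Ccr7+ DC-like 54.7 and 97.5 and cDC1-like 59.9 and 80.4 CPM. The lymphoid level of Cd209a was high, 79.9 at D0 and 117 at D5, and the cDC1-like level lay below it on both days. The lead of the cDC2-like over the preDC-like nuclei was 2.58-fold at D0 and 1.58-fold at D5.

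Cd209d (chr8:3871824-3878548, minus strand) marked a different class from its paralog. preDC-like nuclei held 394 CPM at D0 (332 to 465) and 216 at D5 (201 to 231), 3.50 and 2.80 times the next class, which was pDC-like with 113 and 77.0 CPM. cDC2-like nuclei held 32.5 and 30.9 CPM and cDC1-like nuclei 12.4 and 14.3, beside a lymphoid level of 21.0 and 23.4. Macrophage-like nuclei held 17.8 and 18.2, nonclassical monocyte-like 13.9 and 36.0 and Ccr7+ DC-like 18.2 and 10.3 CPM. Of the preDC-like nuclei, 26.5% at D0 and 16.5% at D5 had a Cd209d UMI after thinning. Cd209d was among the 10 leading genes of the preDC-like cluster, whose first leading genes were Cyp7b1 and Alox5.

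Clec4a4 (chr6:122990367-123024421, plus strand) was barely detected in the classes as named here. cDC2-like nuclei held 14 UMIs (3.37 CPM) at D0 and 134 (5.53 CPM) at D5. No named class exceeded 5.53 CPM. The nonclassical monocyte-like and T cell-like nuclei had no UMI at D0. The transcript was concentrated in a cluster that stayed unnamed, led by Adgrl3 and Frmd5, in which 4 of 12 cDC2 markers were raised. Its 349 nuclei at D0 held 63.8 CPM of Clec4a4 (45.4 to 87.2) and its 361 nuclei at D5 held 52.0 (38.8 to 68.2). Clec4a4 was among the 10 leading genes of that cluster, so its height there is a description of the cluster. The cluster was left out of the cDC2-like class because none of its raised cDC2 markers was a leading gene. Counted in, cDC2-like nuclei held 11.1 CPM of Clec4a4 at D0 (8.33 to 14.6) and 7.37 at D5 (6.35 to 8.51).

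Clec4a2 (chr6:123122690-123143999, plus strand) was highest in macrophage-like nuclei, at 141 CPM at D0 (123 to 161) and 219.7 at D5 (204 to 236). cDC2-like nuclei followed at 80.7 and 74.5 CPM and did not differ beyond the intervals from nonclassical monocyte-like nuclei at 41.7 and 58.8. preDC-like nuclei held 5.59 and 27.3 CPM, Ccr7+ DC-like 9.81 and 23.9, cDC1-like 10.1 and 17.1 and pDC-like 7.33 and 19.7, beside a lymphoid level of 13.4 and 16.9. The cluster led by Adgrl3 held 91.6 and 79.0 CPM.

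Clec9a (chr6:129408862-129424764, plus strand) was the member of the cDC1-like nuclei, with 646.5 CPM at D0 (620.4 to 674) and 374 at D5 (361 to 387). It was not confined to them. At D0 preDC-like nuclei held 249, pDC-like 245, macrophage-like 116 and Ccr7+ DC-like 114 CPM, and at D5 these classes held 117, 242, 30.6 and 71.3. cDC2-like nuclei held 58.8 and 19.7 and nonclassical monocyte-like 20.8 and 29.4 CPM, beside a lymphoid level of 39.5 and 19.1. The level of Clec9a in cDC2-like nuclei at D5 therefore lay within the lymphoid interval. Of the cDC1-like nuclei, 70.6% and 63.4% had a Clec9a UMI, and 45.7% and 30.3% after thinning. The lead over the next class was 2.60-fold over preDC-like nuclei at D0 and 1.54-fold over pDC-like nuclei at D5.

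Clec12a (chr6:129349783-129365303, plus strand) was the broadest member. Macrophage-like nuclei led at D0 with 421 CPM (389 to 455), and pDC-like nuclei led at D5 with 324 (307 to 343). At D0 pDC-like nuclei held 354, cDC1-like 254, cDC2-like 222, nonclassical monocyte-like 195, preDC-like 185 and Ccr7+ DC-like 119 CPM. At D5 macrophage-like nuclei held 220.1, cDC1-like 202, nonclassical monocyte-like 154, preDC-like 128, cDC2-like 123 and Ccr7+ DC-like 116. From macrophage-like nuclei down, neighbours in this D5 order did not differ beyond their intervals. Clec12a was above the lymphoid level, 49.0 and 42.5 CPM, in 14 of 14 myeloid and dendritic classes by day. For the other members this held for 11 of 14 for Clec9a, 9 for Clec10a, 7 for Cd209a, 6 each for Mgl2 and Clec4a2, 5 for Clec4n, 4 for Cd209d and 1 for Clec4a4.

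Among the 9 classes compared, Clec4n (chr6:123229843-123247024, plus strand) was highest in macrophage-like nuclei, with 135.5 CPM at D0 (118 to 155) and 251 at D5 (234 to 268). Nonclassical monocyte-like nuclei held 20.8 CPM at D0, from 3 UMIs (4.30 to 60.9), and 71.9 at D5 (45.1 to 109), so the lead of the macrophage-like nuclei over them was 3.49-fold at D5. At D0 that class did not exceed the lymphoid level and could not be told apart from cDC2-like nuclei. cDC2-like nuclei held 18.8 and 33.5, cDC1-like 3.37 and 7.02, pDC-like 4.30 and 10.5 and Ccr7+ DC-like 2.80 and 12.6 CPM. preDC-like nuclei had no UMI at D0, where the limit of 3 counts is 8.39 CPM and the upper end of the exact interval 10.3 CPM, and 13.8 CPM at D5. The lymphoid level was 5.93 and 10.4. A neutrophil-like cluster of 5 nuclei at D0 and 87 at D5 held 565 CPM of Clec4n at D5 (456 to 693).

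**Figure D1:**
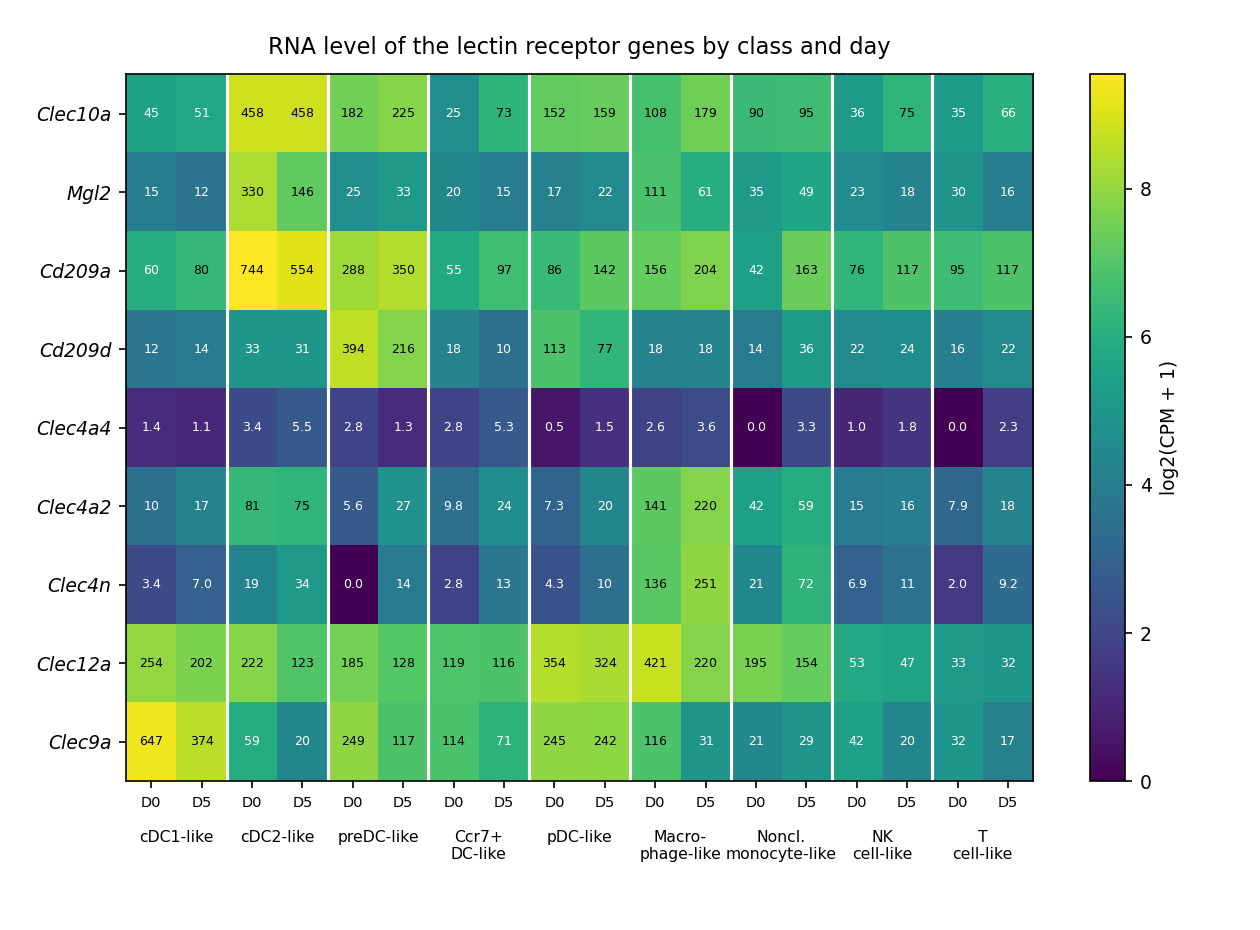
RNA level of the 9 members with RNA rows (rows) in 9 classes of nuclei (columns) at D0 and D5, printed as CPM and coloured by log2(CPM + 1). Clec10a, Mgl2 and Cd209a are highest in cDC2-like nuclei, Clec9a in cDC1-like, Cd209d in preDC-like and Clec4a2 and Clec4n in macrophage-like nuclei on both days, while Clec12a leads in macrophage-like nuclei at D0 and in pDC-like nuclei at D5.

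The highest class stood apart from the next by its interval in 16 of 18 combinations of member and day, the exceptions being both days of Clec4a4. The genes with the most similar pattern over the 18 classes by day were, for Clec10a, Slamf9 (Pearson r of log2(CPM + 1) = 0.89), Cfp (0.87) and Sycp2 (0.86). For Mgl2 they were Mycbp2 (0.87), Clec4b1 (0.86) and Socs3 (0.84), and for Cd209a Dab2 (0.89), Kcne3 (0.89) and Tnfsf9 (0.87). Those of Cd209d were Gm34680 (0.94), Bst2 (0.93) and Ube2r2 (0.90). Socs3, Dab2 and Tnfsf9 were also leading genes of cDC2-like clusters. For Clec9a they were Clec1a (0.95), Gm43914 (0.94) and Slco3a1 (0.92). The start site of Gm43914 lies within 10 kb of the accessible region over the Clec9a start. For Clec12a they included Unc93b1 (0.97) and Gnaq (0.96), for Clec4a2 Clec4b1, Ms4a6d and Fcgr1 (0.94 each), for Clec4n Fcgr1 (0.96), Clec4d (0.89) and Cxcl2 (0.89), and for the sparsely counted Clec4a4 Eid3 (0.88), Tctex1d2 (0.84) and Pira2 (0.83). Among the members, Clec4a2 and Clec4n had an r of 0.95, Clec10a and Cd209a 0.86, Mgl2 and Clec4a2 0.74, Mgl2 and Cd209a 0.74, and Clec10a and Mgl2 0.69. These are descriptions over classes that share their libraries and depth.

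The comparison of cDC2-like with cDC1-like nuclei asks which receptors separate the conventional dendritic cells. At D0 Mgl2 was 21.3-fold higher in cDC2-like nuclei, Cd209a 12.4-fold and Clec10a 10.1-fold (log2 ratios 4.42, 4.03 to 4.83, then 3.63, 3.43 to 3.84, and 3.34, 3.10 to 3.58). Clec4a2 (2.99), Clec4n (2.48) and Cd209d (1.39) were also more than 2-fold higher. The cDC1-like levels of these members did not exceed the lymphoid level on either day, nor did that of Clec4a4, so these ratios are against that level and not against a measured cDC1 level. For Cd209d the cDC2-like level did not exceed it either, and it is among the members counted next. Clec9a was lower, with a log2 ratio of -3.46 (-3.66 to -3.27), and Clec12a stood close to equality at -0.20 (-0.33 to -0.06). In all, 6 of the 8 members with at least 50 UMIs were at least 2-fold higher in cDC2-like nuclei, against 6.84% of all genes, and 1 was at least 2-fold lower, against 7.59%. At D5 the figures were 7 of 9 higher, against 8.57%, and 1 lower, against 6.18%. The D5 log2 ratios were 3.17 for Clec10a, 3.64 for Mgl2, 2.78 for Cd209a, 2.12 for Clec4a2, 2.26 for Clec4n, 1.11 for Cd209d, 2.29 for Clec4a4 (1.36 to 3.38), -0.72 for Clec12a (-0.80 to -0.63) and -4.25 for Clec9a (-4.39 to -4.11), whose cDC2-like level at D5 was the lymphoid level. The median of the members was 2.74 at D0 and 2.26 at D5, beside -0.14 and -0.08 over all genes. Without doublet removal it was 1.38 and 1.64.

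preDC-like nuclei were compared with cDC2-like nuclei because the precursor-like state is thought to give rise to them. At D5 Cd209d (log2 ratio 2.80, 2.66 to 2.95) and Clec9a (2.57, 2.38 to 2.75) were higher in preDC-like nuclei, in both cases against a cDC2-like level that did not exceed the lymphoid level. Mgl2 (-2.12, -2.38 to -1.87), Clec4a4 (-2.11, -3.76 to -0.85), Clec4a2 (-1.45, -1.74 to -1.16), Clec4n (-1.28, -1.71 to -0.88) and Clec10a (-1.03, -1.13 to -0.93) were lower, Cd209a was at -0.66 (-0.74 to -0.58) and Clec12a at 0.06 (-0.08 to 0.19). The preDC-like levels of Clec4a4 and Clec4n did not exceed the lymphoid level. Thus 2 of 9 were at least 2-fold higher, against 5.99% of all genes, and 5 of 9 at least 2-fold lower, against 5.61%. The second count was smaller against single cDC2-like clusters, which are described below. It was 3 of 9 against that led by Sirpb1a, 2 of 9 against that led by Il1r2 and 4 of 8 against that led by Tnfsf9. The share of all genes past 2-fold against these clusters is not given here. In the same order the median of the members was -0.94, -0.68 and -1.26, beside 0.04, 0.16 and 0.30 over all genes. At D0, with only 200 preDC-like nuclei, the ratios of Cd209d (3.60), Clec9a (2.08) and Mgl2 (-3.71) had the same sign, where the preDC-like level of Mgl2 and the cDC2-like level of Cd209d did not exceed the lymphoid level. In mature Ccr7+ DC-like nuclei at D5, Clec10a (-2.64), Mgl2 (-3.29), Cd209a (-2.51), Clec4a2 (-1.64), Cd209d (-1.59) and Clec4n (-1.41) were lower than in cDC2-like nuclei, Clec4a4 was at -0.06 (-0.91 to 0.69), Clec12a at -0.08 and Clec9a at 1.85. Of these, the Ccr7+ DC-like levels of Clec12a and Clec9a alone exceeded the lymphoid level, and the cDC2-like levels of Cd209d and Clec9a did not.

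The comparison of D5 with D0 within a class asks whether the receptors differ during early bile duct injury. In cDC2-like nuclei Mgl2 at D5 was 0.441 times its D0 level (log2 ratio -1.18, -1.27 to -1.09), while Clec10a was level at 0.00 (-0.07 to 0.07). Cd209a was at -0.43 (-0.48 to -0.37) and Clec12a at -0.85 (-0.96 to -0.75). Clec4n was higher at 0.84 (0.50 to 1.19), a 1.79-fold difference. Clec9a was at -1.58 (-1.80 to -1.35), in a class where its D5 level did not exceed the lymphoid level. Clec4a2 (-0.11, -0.28 to 0.06), Cd209d (-0.07, -0.34 to 0.20) and Clec4a4 (0.71, -0.08 to 1.62) had intervals that include 0. With the cluster led by Adgrl3 counted as cDC2-like, Clec4a4 turned to -0.59 (-1.04 to -0.13) and Clec10a stood at 0.12 (0.05 to 0.19). Of the 9 members, 0 were at least 2-fold higher, against 1.1% of all genes, and 2 of 9 were at least 2-fold lower, against 5.98%. The median of the members was -0.11 and that of all genes -0.17. With TMM factors (trimmed mean of M-values, a scaling to the typical gene) all D5 to D0 ratios in cDC2-like nuclei shift up by 0.27, which puts Mgl2 at -0.91, Cd209a at -0.16, Clec10a at 0.27 and Clec4n at 1.11.

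The cDC2-like nuclei formed 3 clusters, led by Sirpb1a, by Il1r2 and by Tnfsf9 and Tnip3, with 699, 270 and 1112 nuclei at D0 and 2447, 2555 and 3433 at D5. Mgl2 was lower at D5 in each of them, from 233 to 140 CPM (log2 ratio -0.74) in the cluster led by Sirpb1a, from 151 to 91.2 CPM (-0.73) in that led by Il1r2 and from 427 to 187 CPM (-1.19) in that led by Tnfsf9. Cd209a was not uniform. It went from 623 to 548 CPM (-0.19), from 349 to 384 CPM (0.14) and from 904 to 675 CPM (-0.42) in the same order. Clec10a stayed between 0.06 and 0.22 in all of them, Clec12a between -0.91 and -0.59 and Clec4n between 0.55 and 1.07. The share of the cDC2-like nuclei that lay in the cluster led by Il1r2 differed between the days, and its part in the pooled ratios was not tested beyond these values.

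**Figure D2:**
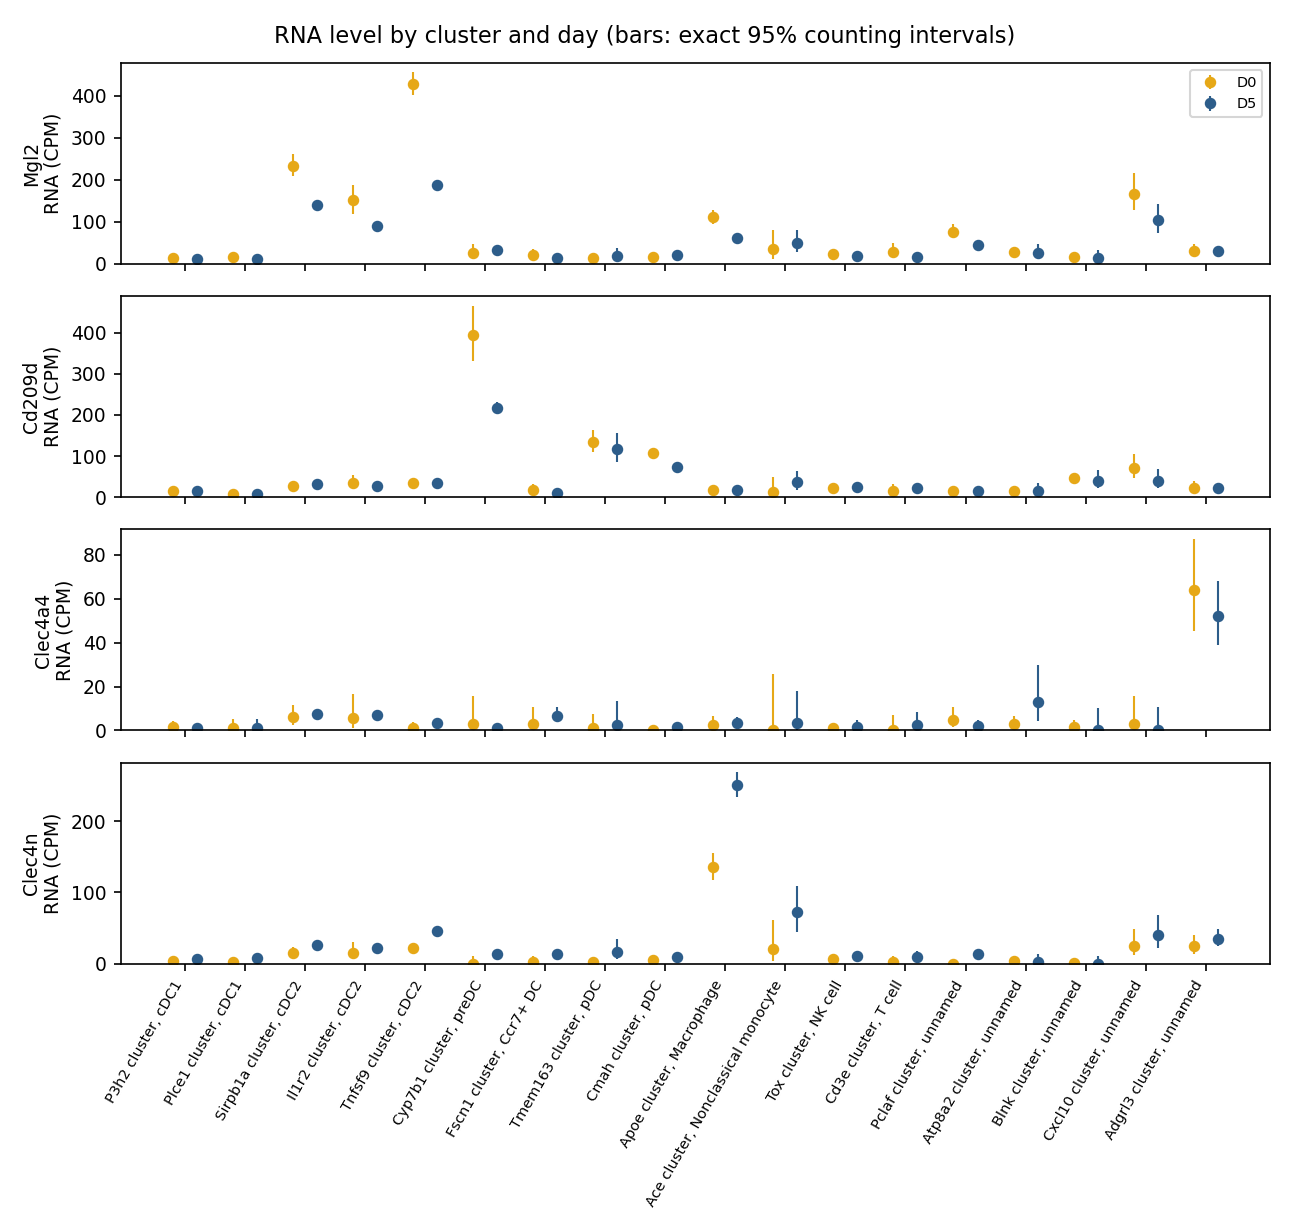
CPM of Mgl2, Cd209d, Clec4a4 and Clec4n by cluster at D0 and D5, with clusters named by a leading gene and bars for the exact 95% counting interval. Mgl2 is lower at D5 in each cDC2-like cluster (427 to 187 CPM in that led by Tnfsf9), Cd209d is highest in the preDC-like cluster and Clec4a4 in the cluster led by Adgrl3.

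Detection of Mgl2 was also set beside that of Clec10a in the same nuclei. Among cDC2-like nuclei thinned to 1000 UMIs, Mgl2 was detected in 22.0% of the 596 with a Clec10a UMI and 22.8% of the 1485 without at D0, and in 10.7% of 2560 and 9.6% of 5875 at D5. Detection of Mgl2 was thus lower at D5 in both sets, and intervals of the paired shares overlapped on each day. Cd209a was detected in 47.0% of the nuclei with a Clec10a UMI and 40.5% of those without at D0, with overlapping intervals (42.9 to 51.1 and 38.0 to 43.0). At D5 the shares were 44.0% and 31.9%, with intervals apart (42.1 to 46.0 and 30.7 to 33.1).

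In cDC1-like nuclei Clec9a at D5 had a log2 ratio to D0 of -0.79 (-0.87 to -0.71), or -0.47 with TMM factors. Clec12a was at -0.33 (-0.45 to -0.22) and at -0.02 with TMM factors. Clec4a2 (0.76, 0.22 to 1.32), Clec4n (1.06, 0.15 to 2.08) and Cd209a (0.42, 0.20 to 0.65) were higher at D5 but not above the lymphoid level on either day. For Cd209a that level was itself higher at D5 beyond the intervals. Of 8 members, 1 was at least 2-fold higher, against 0.519% of all genes, and 0 were at least 2-fold lower, against 5.51%. The median was 0.18, beside -0.23 over all genes. Among these 8 members Clec9a and Clec12a alone exceeded the lymphoid level, and both were lower at D5. The median thus rests mainly on members that did not exceed that level.

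**Figure D3:**
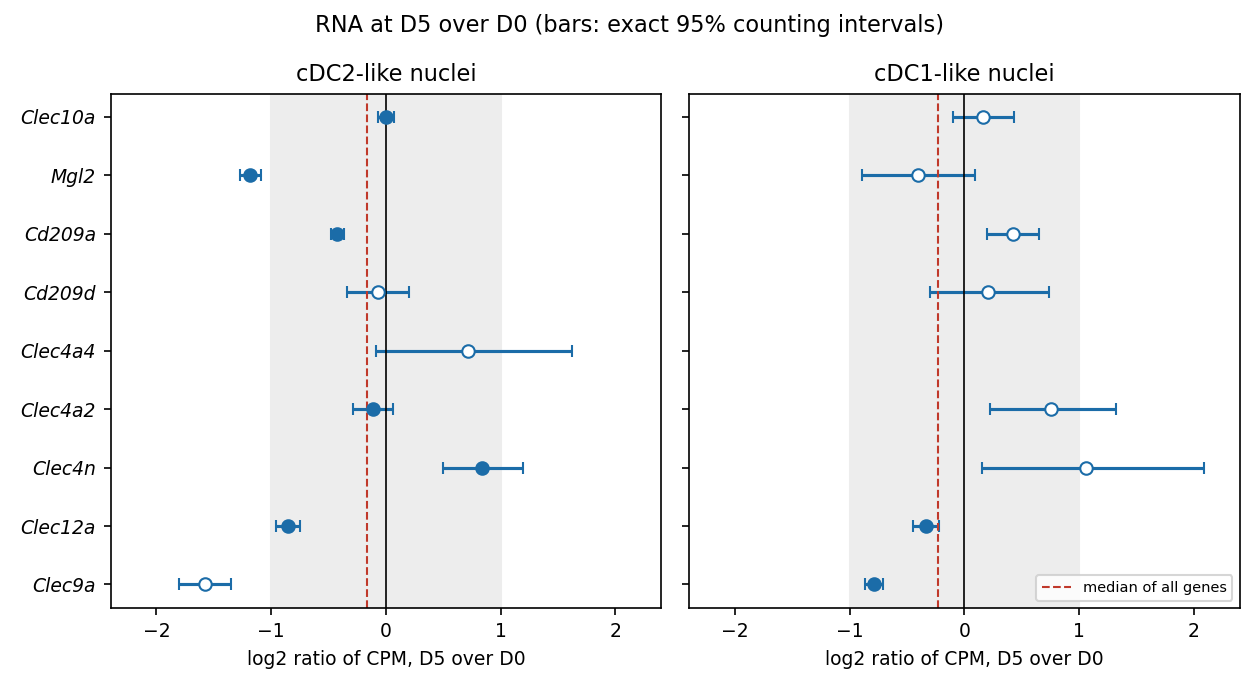
RNA log2 ratio of CPM at D5 over D0 in cDC2-like and cDC1-like nuclei with exact 95% counting intervals, filled where both days lie above the lymphoid level and open where not. The grey band marks less than 2-fold and the dashed line the median of all genes (-0.17 and -0.23), and Mgl2 in cDC2-like nuclei is the filled point beyond the band at -1.18.

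Outside these classes the members of the macrophage-like nuclei moved in both directions. Clec4n (0.89, 0.66 to 1.11), Clec10a (0.73, 0.48 to 0.99) and Clec4a2 (0.64, 0.42 to 0.87) were higher at D5, and Clec9a (-1.92, -2.29 to -1.56), Clec12a (-0.94, -1.09 to -0.78) and Mgl2 (-0.86, -1.16 to -0.56) were lower. The sort was against CD64, and these nuclei are those that remained in the gate. In preDC-like nuclei Cd209d was at -0.87 (-1.13 to -0.60) and Clec9a at -1.09 (-1.42 to -0.75), while Clec10a (0.31, -0.06 to 0.69) and Cd209a (0.28, -0.01 to 0.58) had intervals that include 0. Clec4a2 was at 5.59 CPM at D0 (0.677 to 20.2, from 2 UMIs) and 27.3 at D5 (2.29, 0.40 to 5.35), of which the D0 level did not exceed the lymphoid level. Clec4n, with no UMI at D0, was not above the lymphoid level on either day. In pDC-like nuclei Clec9a differed little (-0.01, -0.15 to 0.12), as did Clec12a (-0.13, -0.24 to -0.01), Cd209d was at -0.55 (-0.76 to -0.33) and Cd209a at 0.72 (0.52 to 0.92), from a D0 level that did not exceed the lymphoid level. Clec4a2 (1.43, 0.79 to 2.10) and Clec4n (1.29, 0.44 to 2.20) were more than 2-fold higher in pDC-like nuclei, but not above the lymphoid level on either day. In the NK cell-like nuclei Clec10a (1.07, 0.66 to 1.49) and Cd209a (0.62, 0.33 to 0.92) were higher and Clec9a (-1.06, -1.62 to -0.52) was lower at D5. The lymphoid level of these members thus differed between the days in the same direction as their level in several other classes. With the lymphoid level of each day taken off, the cDC2-like ratios were -0.13 for Clec10a, -1.25 for Mgl2, -0.61 for Cd209a, -0.22 for Clec4a2, -1.11 for Clec12a and 0.85 for Clec4n, and that of Clec9a in cDC1-like nuclei was -0.77.

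The pathway below the receptors was examined with a list of 26 signalling genes (Syk, Card9 and partners). All 26 passed the minimum of 20 UMIs in cDC2-like nuclei, with a median D5 to D0 log2 ratio of -0.17, equal to the median of all genes. The sign of the list's median depends on the scaling, since it was 0.10 with TMM factors and 0.11 with median-of-ratios factors. By their intervals 4 were higher and 15 lower, where 11.98% and 30.4% of all genes were. Past 2-fold 1 was higher and 2 were lower, beside the 1.1% and 5.98% of all genes given above. Rel, an NF-kappaB subunit, went from 1822 to 1050 CPM (-0.80, -0.83 to -0.76), Rasgrp3 from 30.1 to 9.36 CPM (-1.68, -2.01 to -1.36) and the adaptor Blnk from 24.3 to 11.3 CPM (-1.11, -1.45 to -0.77). Higher were Fcer1g, the Fc receptor gamma chain that carries the Clec4n signal, from 734 to 972 CPM (0.41), the kinase Fgr from 188 to 254 CPM (0.44) and Src, from 3 to 60 UMIs (1.78, 0.16 to 4.09). Of 34 other C-type lectin receptor genes, 24 passed the minimum, with a median of -0.28. By their intervals 3 were higher and 13 lower, beside the same 11.98% and 30.4% of all genes. Past 2-fold, 3 of the 22 with at least 50 UMIs were higher and 4 lower, beside the same 1.1% and 5.98%. Clec4e (2.17 to 4.87 CPM, 1.17, from 9 UMIs at D0) and Clec4d (2.65 to 5.61 CPM, 1.08, from 11 UMIs at D0), the partners Mincle and Mcl, were higher, as was Clec4a3 at less than 2-fold (54.7 to 77.6 CPM, 0.50). The third was Cd209e, with 4 UMIs at D0 and 47 at D5 (1.01, -0.44 to 2.94). Cd209c (38.5 to 18.4 CPM, -1.07), Cd209b (7.22 to 2.97 CPM, -1.28), Clec1a (16.1 to 5.86 CPM, -1.46) and Clec1b (-1.13) were lower. For the genes of either list the lymphoid level is not given here, so which of them exceeded it in cDC2-like nuclei is left unsaid.

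Accessibility was measured as ATAC fragments in the regions within 10 kb of a start site, scaled to the fragments of the class in all regions shared by the libraries (fragments per 1000000, written FPM). The members had between 1 region (Clec4a4) and 6 (Clec9a and Clec12a). Of the 39 regions, 10 overlapped a start site, 1 for each member. The windows held only regions with a peak in both libraries, and peaks called in 1 library were left out. Called at D5 alone were chr11:70124595-70125366 and chr11:70128862-70129539 near Mgl2 and further peaks near Clec10a, Cd209a and Clec7a. At D0 alone they were near Cd209d, Clec7a and Clec4n. In the shared regions the windows of cDC2-like nuclei differed little between the days. Of the 10 windows, 0 were at least 2-fold higher at D5, against 0.368% of all windows, and 0 were at least 2-fold lower, against 2.37%, with a median log2 ratio of -0.05 beside -0.02 over all windows. The Mgl2 window held 14.3 FPM at D0 and 13.9 at D5 (-0.05, -0.36 to 0.27), beside the RNA ratio of -1.18. Cd209d had the one interval that leaves out 0 (-0.43, -0.79 to -0.05), 1 of 10 windows, where 15.4% of all windows were lower and 11.8% higher by their intervals. The windows of Clec10a (0.19, -0.05 to 0.44) and Clec12a (-0.12, -0.26 to 0.03) had intervals that include it.

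Some single regions differed more, on fewer fragments than a window, and no share over all regions was set beside them. The Mgl2 region at the start site (chr11:70129705-70130577, over the promoter printed above) held 8.1 FPM in cDC2-like nuclei at D0 and 5.8 at D5 (-0.49, -0.92 to -0.04), and 3.9 in cDC1-like nuclei on both days. A region 9.0 kb before the start (chr11:70120933-70121827) went the other way in cDC2-like nuclei, from 3.75 to 5.64 FPM (0.59, 0.01 to 1.21). A further region in the Mgl2 gene body, centred 5.8 kb after the start (chr11:70135787-70136626), had the opposite distribution, with 19.3 and 18.6 in pDC-like and 15.3 and 10.9 in preDC-like nuclei against 0.8 and 0.9 in cDC2-like nuclei. This region held more fragments than any other of the window, and the window of Mgl2 was highest in the pDC-like and preDC-like nuclei (21.7 and 22.3 at D0), where Mgl2 RNA was at or near the lymphoid level. At Clec10a the region over the start (chr11:70166114-70167052) held 16.8 and 16.4 FPM in cDC2-like nuclei, 19.9 and 22.5 in preDC-like, 15.3 and 20.004 in pDC-like, 21.4 and 20.04 in macrophage-like, 4.65 and 4.59 in cDC1-like and 0.59 and 0.87 in NK cell-like nuclei. A region 2.9 kb before it (chr11:70163337-70164235) went from 1.59 to 4.95 in cDC2-like nuclei (1.64, 0.80 to 2.61). Of the shared Clec10a regions, it alone was more than 2-fold higher at D5 in that class. A Clec10a gene-body region (chr11:70169225-70170059) held 16.1 and 19.1 in pDC-like and 11.1 and 9.9 in preDC-like nuclei. In cDC2-like nuclei it held 2.5 and 2.9. The whole window of Clec10a was highest in pDC-like nuclei on both days (35.4 and 45.3), not apart from preDC-like nuclei by its interval.

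The Cd209a start region (chr8:3748539-3749424) held 12.1 and 11.1 FPM in cDC2-like, 10.6 and 12.4 in preDC-like and 3.7 and 5.6 in cDC1-like nuclei. A region 5.5 kb before it (chr8:3754022-3754920) did not follow the RNA, with 19.6 and 15.4 in nonclassical monocyte-like (7 fragments on each day), 16.2 and 9.8 in macrophage-like, 11.1 and 13.4 in NK cell-like and 14.8 and 15.1 in T cell-like nuclei against 5.0 and 4.4 in cDC2-like nuclei. The Cd209d start region (chr8:3878150-3879044, which holds the ETS-IRF letters printed above) held 10.0 and 5.7 in preDC-like, 7.6 and 5.6 in cDC2-like, 4.5 and 5.1 in cDC1-like and 5.1 and 5.2 in pDC-like nuclei. The Cd209d window differed little between preDC-like and cDC2-like nuclei at D5 (-0.07), where its RNA log2 ratio was 2.80.

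**Figure D4:**
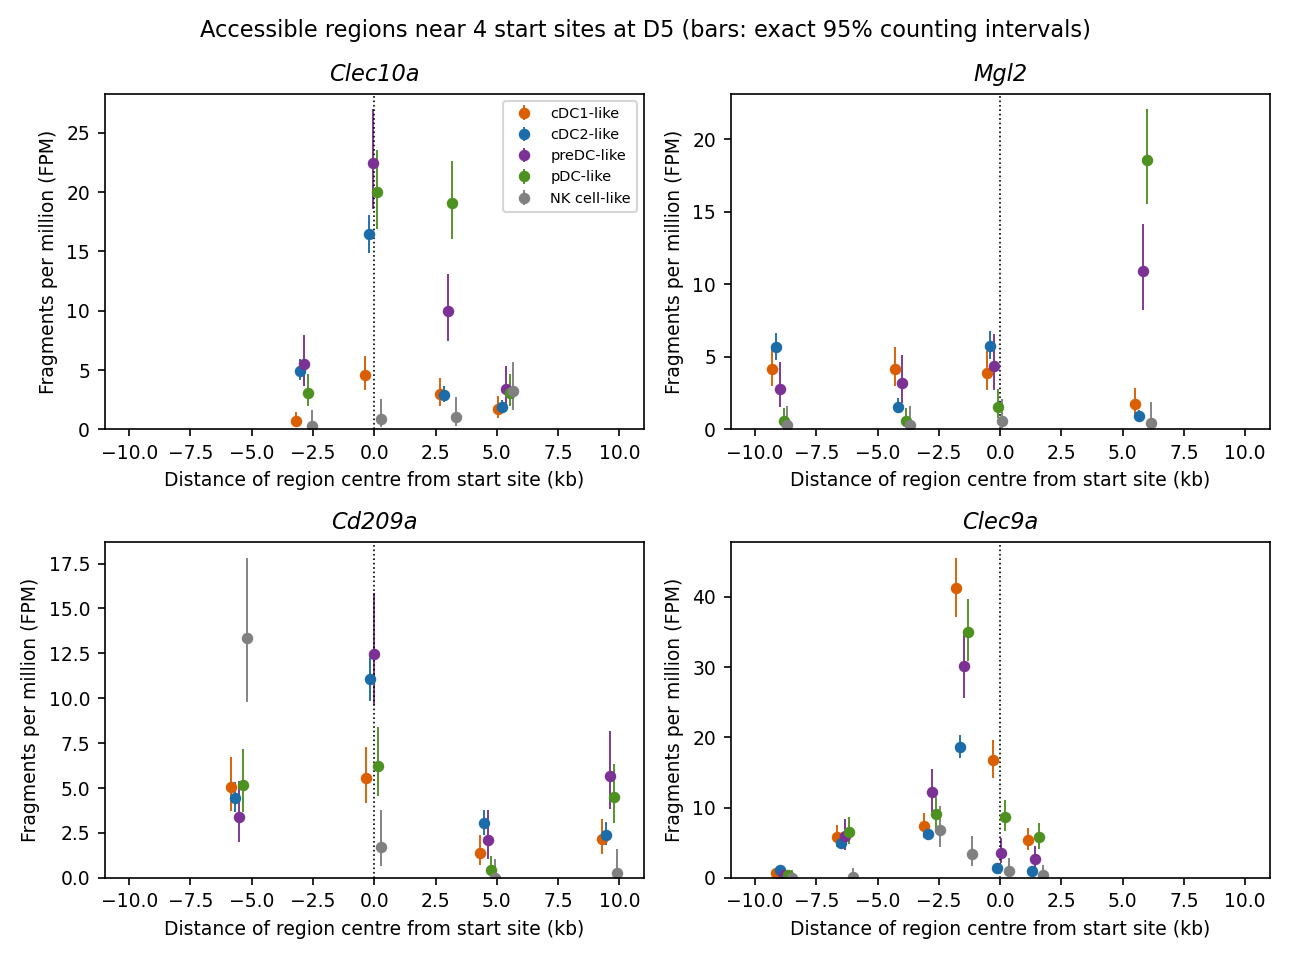
ATAC fragments per 1000000 of the class (FPM) at D5 (vertical axis) in each region against the distance of its centre from the start site in kb (horizontal axis) for Clec10a, Mgl2, Cd209a and Clec9a in 5 classes. The region 5.8 kb into Mgl2 is high in pDC-like and preDC-like nuclei (18.6 and 10.9) and low in cDC2-like nuclei (0.9), while the Mgl2 start region is highest in cDC2-like nuclei among these classes (5.8).

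At Clec9a the start region (chr6:129408518-129409346, over the AP-1-IRF letters) held 16.6 and 16.8 FPM in cDC1-like nuclei, 8.4 and 8.6 in pDC-like, 2.1 and 1.4 in cDC2-like and 15.8 and 3.6 in preDC-like nuclei. A stronger region 1.5 kb before it (chr6:129406969-129407909), also within 10 kb of Clec1b, held 32.8 and 41.2 in cDC1-like, 29.9 and 30.1 in preDC-like, 29.2 and 35.0 in pDC-like, 18.5 and 18.6 in cDC2-like and 4.2 and 3.3 in NK cell-like nuclei. A weaker region in the gene body, 1.4 kb after the start (chr6:129409916-129410781), held 6.13 and 5.40 in cDC1-like nuclei and 1.34 and 0.987 in cDC2-like nuclei, with log2 ratios of cDC2-like over cDC1-like nuclei of -2.20 (-3.33 to -1.20) and -2.45 (-3.20 to -1.73). The whole window of Clec9a held 67.8 and 77.2 in cDC1-like and 32.9 and 33.5 in cDC2-like nuclei. In preDC-like nuclei it held 76.3 and 54.8 and in pDC-like nuclei 61.6 and 65.3. At D0 preDC-like nuclei were thus highest, not apart from cDC1-like nuclei by their interval. All regions of the window before the start region were also within 10 kb of Clec1b. The Clec9a window was not lower at D5 in cDC1-like nuclei, in which Clec9a RNA was lower at D5.

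For the broad Clec12a the start region (chr6:129349606-129350471) held 36.4 to 47.4 FPM over the myeloid and dendritic classes, and 4.6 to 9.6 in the lymphoid classes. In cDC2-like nuclei its gene-body region chr6:129351060-129351820 went from 14.7 FPM at D0 to 11.4 at D5 (-0.37, -0.68 to -0.04). Another in the gene body, chr6:129353573-129354458, went from 3.31 to 1.72 (-0.95, -1.68 to -0.19). Clec7a, for which RNA was not analysed here, had its window highest in nonclassical monocyte-like (78.3 and 48.5) and macrophage-like nuclei (60.8 and 56.1). cDC2-like nuclei held 36.0 and 36.0, cDC1-like 24.0 and 27.7, preDC-like 22.9 and 18.5, pDC-like 5.78 and 4.07 and NK cell-like 3.65 and 4.35. The Clec7a start region (chr6:129472379-129473305), over the second ETS-IRF letters printed above, held 19.6 and 19.8 in cDC2-like and 16.4 and 19.9 in cDC1-like nuclei against 1.0 and 1.4 in pDC-like nuclei. For Clec4n the region with the most fragments lay 2.2 kb before the start (chr6:123227277-123228216), with 20.7 and 19.3 in macrophage-like, 19.9 and 19.1 in cDC2-like and 12.1 and 13.1 in cDC1-like nuclei. The start region of Clec4n (chr6:123229381-123230286) held 12.8 and 11.8, 8.7 and 8.3 in macrophage-like and cDC2-like nuclei and 0.8 and 1.1 in pDC-like nuclei.

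The Clec4a2 start region (chr6:123122879-123123779) held 34.6 and 19.6 in preDC-like, 18.2 and 17.7 in macrophage-like, 17.7 and 17.03 in cDC2-like and 14.3 and 15.01 in cDC1-like nuclei, and was thus open in cDC1-like nuclei, and in preDC-like nuclei at D0, in which its RNA did not exceed the lymphoid level. The single region of Clec4a4 (chr6:122989686-122990594) held 12.3 and 12.1 in cDC2-like, 14.3 and 13.3 in Ccr7+ DC-like, 5.08 and 2.62 in cDC1-like and 0.87 and 0.84 in pDC-like nuclei, and 18.1 and 14.8 in the cluster led by Adgrl3.

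Between cDC2-like and cDC1-like nuclei the window ratios of Clec10a, Mgl2, Cd209a, Cd209d, Clec4a2, Clec4n and Clec9a were closer to 0 than their RNA ratios on both days. That of Clec12a had the sign opposite to its RNA, with 0.30 (0.11 to 0.49) at D0 and 0.29 (0.15 to 0.44) at D5. The sign was opposite for Cd209d too, at -0.33 (-0.76 to 0.10) and -0.31 (-0.66 to 0.06), with intervals that include 0. At D0, 1 of 10 windows was at least 2-fold higher in cDC2-like nuclei (Clec4a4, log2 ratio 1.28), against 2.1% of all windows, and 1 was lower (Clec9a, -1.04, -1.27 to -0.82), against 6.07%. Clec10a was at 0.88, Clec4n at 0.81, Cd209a at 0.68, Clec7a at 0.59 and Mgl2 at 0.09 (-0.32 to 0.50), where the RNA of Mgl2 differed by 4.42. At D5, 2 of 10 were higher (Clec10a, 1.39, 1.07 to 1.72, and Clec4a4, 2.21), against 2.64%, and 1 was lower (Clec9a, -1.20), against 7.52%. Mgl2 remained at -0.01 (-0.31 to 0.29). Within 2 kb of the start site the D0 ratios were 1.85 for Clec10a, 1.72 for Cd209a and 1.03 for Mgl2. Between preDC-like and cDC2-like nuclei at D5, 0 of 10 windows were at least 2-fold higher, against 6.64%, and 0 were lower, against 1.73%. Clec9a (0.71, 0.51 to 0.91), Clec10a (0.66, 0.43 to 0.88) and Mgl2 (0.62, 0.29 to 0.93) were more accessible in preDC-like nuclei and Clec7a (-0.96, -1.28 to -0.65) less. By their intervals 3 windows were higher and 2 lower, where 18.4% and 24.7% of all windows were. The Clec12a window held 54.3 FPM in preDC-like and 62.5 in cDC2-like nuclei. The Clec10a window thus went opposite to its RNA, as did its start region (0.45, 0.14 to 0.75) and its gene-body region chr11:70169225-70170059 (1.78, 1.23 to 2.31). The Mgl2 window did so too, but its start region did not (-0.41, -1.12 to 0.24), nor did chr11:70120933-70121827 (-1.01, -1.90 to -0.23). Higher in preDC-like nuclei were the Mgl2 gene-body region (3.62, 2.89 to 4.39) and chr11:70125929-70126847 (1.03, 0.11 to 1.89).

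**Figure D5:**
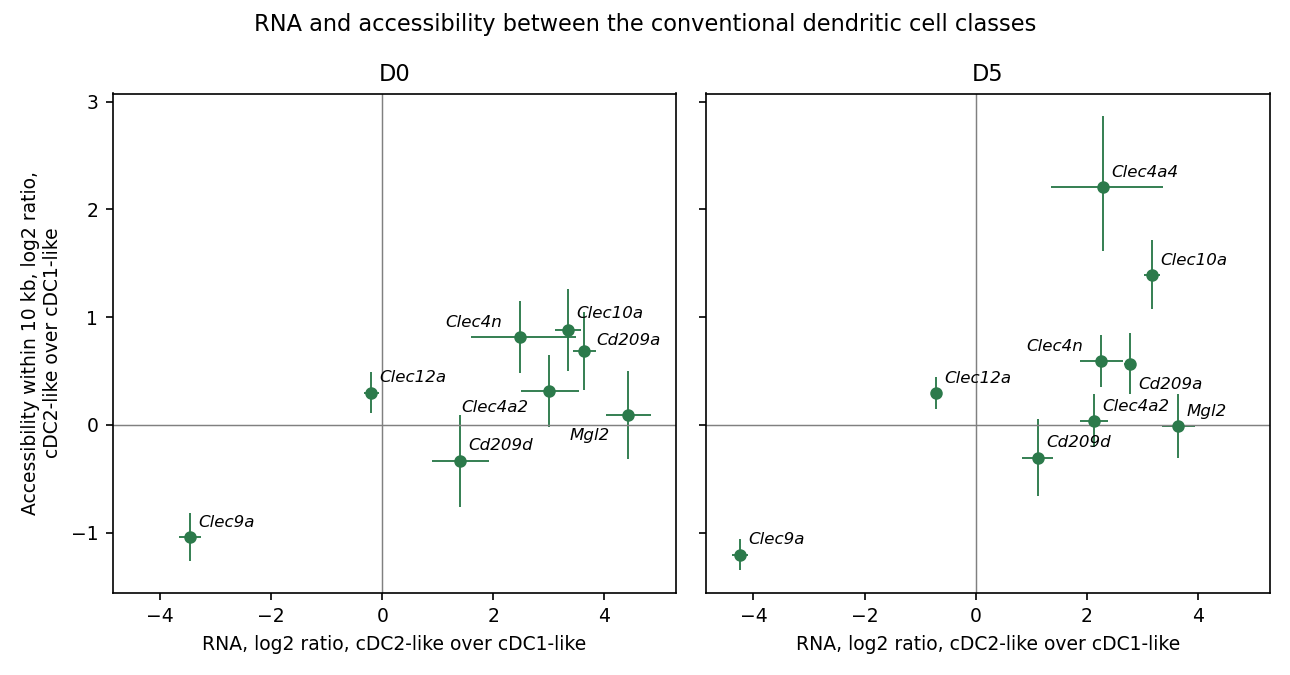
Log2 ratio of cDC2-like over cDC1-like nuclei in RNA (horizontal axis) and in accessibility within 10 kb of the start site (vertical axis) at D0 and D5, with exact 95% counting intervals, for the members with at least 20 UMIs in the sums compared. Mgl2 lies farthest right at D0 (4.42) near an accessibility ratio of 0.09, and Clec9a lies at the lower left on both days.

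Over the 18 classes by day, the Pearson r between log2 RNA and log2 window accessibility was 0.85 for Clec12a, 0.79 for Clec9a and 0.72 for Clec10a. It was 0.56 for Cd209a, 0.55 for Clec4a4, 0.46 for Clec4n, 0.44 for Cd209d, 0.42 for Clec4a2 and 0.16 for Mgl2. The classes share libraries and depth, so these values describe the members in these nuclei. They include the NK and T cell-like nuclei, which were lowest in both layers for Clec12a. Among the other classes, Ccr7+ DC-like nuclei had the highest Clec12a window (72.1 and 64.3 FPM) and the lowest RNA (119 and 116 CPM). In neither layer were they apart from the next class by their interval. An r without the lymphoid classes was not computed.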

How the data were processed

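The authors processed the libraries with Cell Ranger ARC 2.0.2 on mm10, per the submitters' processing notes, and deposited raw counts: UMIs per gene and barcode, and transposition counts per peak, with peaks called in each library alone. A peak count of 2 made up 70.4% (D0) and 75.1% (D5) of the entries, as when both fragment ends are counted, and fragments are peak counts over 2. Depth was 44496348 UMIs over 16260 called barcodes at D0 and 94374499 over 27873 at D5, with 230603066 and 246268185 peak counts. How many mice gave each library is not given in the sources used here.

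Filters required 1000 or more UMIs and no more than 10% mitochondrial UMIs per nucleus, and nuclei with a Scrublet score of 0.2 or higher (expected rate 0.1, per library) were removed, 23.1% at D0 and 25.5% at D5. Both libraries were clustered together (scanpy 1.11.5, 2000 variable genes, 30 principal components, 15 neighbours, Leiden resolution 1). Naming a cluster took 3 or more class markers that were 2-fold or more above the remaining clusters, and either a marker among its 10 leading genes or 50% or more of the class markers raised. Of 21 clusters, 5 stayed unnamed, 2 of them with lymphoid and dendritic cell markers together and 1 that was cycling. The unnamed cluster led by Adgrl3 (3.18% of kept D0 nuclei, 1.82% of kept D5 nuclei) raised 4 of 12 cDC2 markers with none among its leading genes. As a departure from the plan, preDC-like nuclei were kept as a class of their own. Classes were summed and compared as log2 ratios of CPM, without a model since each day is 1 library, with exact Poisson and conditional binomial intervals (scipy 1.17.1). A gene counted as past 2-fold with at least 50 UMIs in the sums, a window with at least 20 fragments, and medians used features with at least 20. The interval script was tested on simulated data. Accessibility used nuclei with at least 2000 peak counts and the 127216 regions formed by overlapping peaks of both libraries. TMM factors came from edgeR 4.0.16.

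The members and gene lists were chosen with earlier results of these data known. All members are described. From the gene lists, the text names every gene past 2-fold and the 3 highest and 3 lowest ratios with an interval without 0. For each member it names the 3 genes with the highest correlation (1 of those of Clec12a is not reported here), and of its regions the nearest and the one with the most fragments, and other regions were chosen after their values were seen. Clec10a and Mgl2, Cd209a and Cd209d, and Clec4a2 and Clec4a4 are paralogs that could share reads. Alternatives were other scalings, thinning, other filters on nuclei, no doublet removal, another clustering resolution, a wider cDC2-like class and other windows.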

Additional observations from a re-analysis of the deposited data

Results flagged for a closer look

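The log2 ratio of Cd209a RNA at D5 over D0 was -0.4265 in cDC2-like nuclei and 0.4246 in cDC1-like nuclei, opposite directions in the classes of conventional dendritic cells. The difference was not tested, since each day is 1 library. The cDC1-like levels of Cd209a, 59.9 and 80.4 CPM, lay below the lymphoid levels of 79.9 and 117.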

How the results depend on the processing

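No paired analysis was possible because each day is 1 library, and no replicate could be left out for the same reason. Of 114 alternative values for 11 medians and orders, 97 stayed within the main interval, 15 moved outside it and 2 (of the signalling list) reversed, that is, changed sign where the main interval leaves out 0. The median D5 to D0 log2 ratio of the members in cDC2-like nuclei (-0.11) was 0.16 with TMM factors, 0.16 with median-of-ratios factors and 0.10 in the cluster led by Il1r2. The median of cDC2-like over cDC1-like nuclei was 1.38 at D0 (2.74 as reported) and 1.64 at D5 (2.26) without doublet removal, and 1.67 at D5 in the cluster led by Il1r2. That of preDC-like over cDC2-like nuclei at D5 (-1.03) was -1.26 with TMM factors, -1.26 with median-of-ratios factors, -1.20 thinned, -0.68 without doublet removal, and -0.68 and -1.26 against the clusters led by Il1r2 and by Tnip3 alone. The signalling list (-0.17) was at 0.10 and 0.11 with the 2 scalings, and the other lectin receptors (-0.28) at -0.00582 and -0.00386. The median accessibility ratio of cDC2-like over cDC1-like nuclei at D0 (0.45) was 0.79 within 2 kb. Of 1100 values for single members, 911 stayed within the main interval, 186 moved outside it and 3 reversed: Cd209a in cDC2-like nuclei was 0.14 in the cluster led by Il1r2, Clec12a in pDC-like nuclei was 0.029 with TMM factors and Cd209a in macrophage-like nuclei was -0.00523 with at least 2000 UMIs per nucleus. The ratio of Mgl2 in cDC2-like nuclei lay between -1.31 and -0.73 and that of Clec4n between 0.55 and 1.11, each with 1 sign in 14 of 14 alternatives. With the cluster led by Adgrl3 counted as cDC2-like, the median of the members in that class was -0.31 and the ratio of Clec4a4 -0.59 (0.71 as reported), and at the lower clustering resolution the latter was -0.64. The highest class of a member was the same in 18 of 18 member-days without doublet removal and in 16 when thinned. The single-cluster values, those with the cluster led by Adgrl3 and those without the lymphoid level were added after seeing the data. Clec4a4 had few UMIs in the cDC2-like class as named, where its ratio had an interval that includes 0. The cause of each move was not tested.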
